A study of Homo sapiens with 18 samples.

Results

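The 10 genes listed here, which tumour cells use to restrain or alert immune cells, were examined across 18 cell lines labelled as colorectal cancer (CRC): CD274, CD276, CD47, PVR, NECTIN2, MICA, MICB, ULBP2, HHLA2 and IDO1. Members were found by symbol or older alias, and each was read from its brightest probe set, that is, the one with the highest mean over the lines among the probe sets annotated to that gene alone. MICA was not analysed here, because no probe set was annotated to it alone. The other 9 members were read from 31 such probe sets, out of 19774 genes with a value, and 8 of the 9 exceeded the background level in at least 1 line, as did 15361 of all genes. Biotin-labelled total RNA of each line was measured on 1 expression array, so no line has a replicate, and precision is limited by the number of arrays. DMEM/F-12 with L-glutamine and 15 mM HEPES was the medium of 10 lines (CAR1, CL40, HT55, HUTU80, LS180, OUMS23, RKO, SW1463, SW48 and SW948). The other 8 (COLO320HSR, HCT116, KM12, LS513, MDST8, NCIH716, RCM1 and SNUC1) were kept in RPMI 1640 with L-glutamine, 25 mM HEPES, extra D-glucose and 100 µM sodium pyruvate. Every culture also received fetal bovine serum, penicillin and streptomycin. The medium was the only grouping in the labels, and each line is 1 established tumour culture without stroma or immune cells of a host.

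T cells and natural killer (NK) cells read a balance of inhibitory and activating ligands on the surface of a target cell. Ligands of the B7 family, such as the product of CD274, dampen T cells through their receptors, and CD47 signals to macrophages not to engulf the cell. NKG2D, the receptor encoded by KLRK1, recognises stress-induced proteins such as MICA, MICB and ULBP2 and triggers NK cell killing, while PVR and NECTIN2 are shared by an activating receptor, CD226, and an inhibitory one, TIGIT. IDO1 is an enzyme that depletes tryptophan and produces kynurenine, which restrains T cells.

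All levels are log2 values as deposited, and a difference of 1 is 2-fold. A background level of 3.86 was taken from the 95th percentile of all values of 67 probe sets of 48 genes restricted to other tissues; the 99th percentile was 4.69, and values between these levels are called weak. Levels of different genes come from different probes and are not compared with each other. Between 11106 and 11583 genes per line exceeded the background level, and array medians lay between 3.65 and 3.69. Of 10 markers of intestinal epithelium, all 10 exceeded it in 9 lines, but only 5 did so in RKO and in MDST8 and 6 in SW48, COLO320HSR and HUTU80. EPCAM, the defining epithelial adhesion protein, was listed at 3.74 in COLO320HSR and 3.75 in MDST8, both below background. HUTU80, which carries the CRC label here, was established from a duodenal tumour, and 5 of 6 fibroblast markers exceeded the background level in it, against 1 to 4 in every other line. Of 14 leukocyte markers at most 4 exceeded it in any line. NKG7 was below it in all lines, but 4 of the 14 exceeded the 99th percentile in at least 1 line. PTPRC did so in SW48 and COLO320HSR alone, at 6.68 and 6.40. GZMB was at 10.49 in HT55 and 4.93 in SW1463, PRF1 at 8.12 in RCM1 and 4.76 in HT55, and CD68 at 7.03 in RKO.

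The members fell into 3 patterns. CD276, CD47, PVR, NECTIN2 and ULBP2 exceeded the background level in all 18 lines (5 of 9 members; 42.4% of all measured genes did so), and MICB did so in 17. CD274 was strong in 2 lines and weak or absent in the others. HHLA2 was weak in 1 line and IDO1 was detected in none. Of the 8 detected members, 6 (all but PVR and HHLA2) spanned 3 log2 units (8-fold) or more between their lowest and highest line, a span that 31.9% of the genes above background reached. The median SD over lines was 1.09 for these 8 members and 0.56 for all genes above background. In an RNA extract of a whole culture, fewer cells that express a gene and less RNA per cell cannot be told apart.

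**Figure D1:**
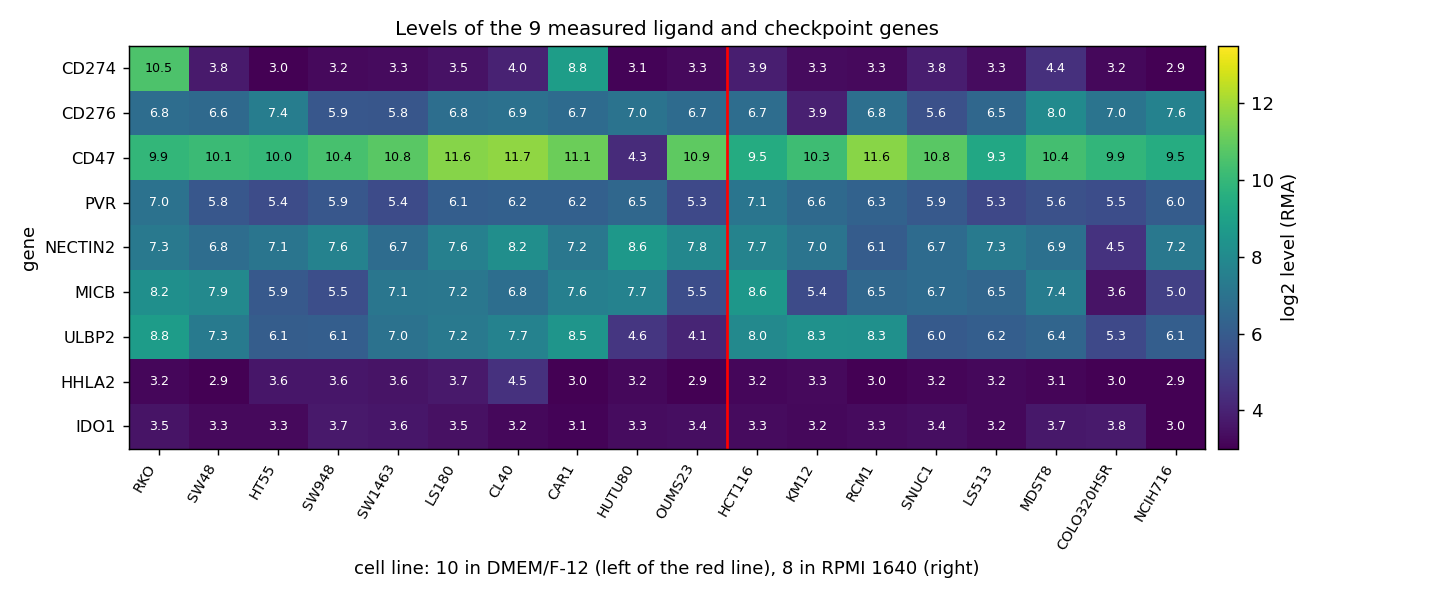
Log2 level (RMA) of the 9 measured members, 1 row per gene, in the 18 lines, 1 column per line; the red line separates the 10 lines in DMEM/F-12 (left) and the 8 lines in RPMI 1640 (right). CD274 reaches 10.55 in RKO and 8.84 in CAR1 and no more than 4.44 elsewhere, and CD47 is 4.28 in HUTU80 and at least 9.28 elsewhere.

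The sequences upstream of 4 members are shown, since these members had the widest ranges between lines. Each is the run of 250 bases that ends just before the annotated transcript start, read 5′ to 3′ on the strand of the gene, from RefSeq on GRCh38.p14. The windows lie at chr9:5450292-5450541 (plus strand) for CD274, chr3:108091032-108091281 (minus strand) for CD47, chr6:31497895-31498144 (plus strand) for MICB and chr6:149941764-149942013 (plus strand) for ULBP2. Capitals mark matches to 9 motifs searched on both strands.
CD274: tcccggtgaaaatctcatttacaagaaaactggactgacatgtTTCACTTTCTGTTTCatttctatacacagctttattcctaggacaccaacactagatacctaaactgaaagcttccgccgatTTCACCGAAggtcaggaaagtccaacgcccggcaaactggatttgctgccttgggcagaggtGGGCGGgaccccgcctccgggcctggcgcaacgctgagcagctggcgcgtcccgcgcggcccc
CD47: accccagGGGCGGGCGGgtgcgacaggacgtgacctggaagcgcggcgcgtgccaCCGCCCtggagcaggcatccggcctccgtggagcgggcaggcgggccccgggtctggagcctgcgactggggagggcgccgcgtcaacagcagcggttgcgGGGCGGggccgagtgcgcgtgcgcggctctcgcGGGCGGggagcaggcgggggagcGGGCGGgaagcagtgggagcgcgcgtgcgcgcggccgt
MICB: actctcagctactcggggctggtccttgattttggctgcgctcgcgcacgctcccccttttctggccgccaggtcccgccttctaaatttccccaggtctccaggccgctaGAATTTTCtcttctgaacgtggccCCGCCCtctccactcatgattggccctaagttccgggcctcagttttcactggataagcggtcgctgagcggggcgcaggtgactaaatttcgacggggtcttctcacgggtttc
ULBP2: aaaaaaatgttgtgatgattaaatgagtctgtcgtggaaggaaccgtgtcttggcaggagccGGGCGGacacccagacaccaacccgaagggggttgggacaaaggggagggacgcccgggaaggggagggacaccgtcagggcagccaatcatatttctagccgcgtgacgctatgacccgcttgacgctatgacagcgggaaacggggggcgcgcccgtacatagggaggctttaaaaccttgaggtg

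The motifs were the interferon-stimulated response element core GAAANNGAA, the gamma-activated site TTCNNNGAA, the NF-kappaB core GGGNNTTTC, the AP-1 site TGANTCA, the CRE TGACGTCA, the GC box GGGCGG, the E-box CACGTG, the NRF1 core GCGCATGC and the heat shock element core GAANNTTC. The CD274 window held 2 matches of the interferon-stimulated response element core on the minus strand, starting 207 and 201 bases before the transcript start and overlapping each other by 3 bases. It also held a gamma-activated site 125 bases and a GC box 63 bases before the start. Of 35116 RefSeq windows of this length, 6.88% held the first of these motifs, 6.57% the second and 42.6% the GC box. The CD47 window held 6 GC boxes and had a GC content of 79.6%, against a median of 58% over all windows. MICB had a heat shock element core 139 bases and a GC box 115 bases before the start, and the heat shock element core was in 5.78% of all windows. ULBP2 had a GC box 188 bases before the start. A match here is a description of letters and not a site or a cause.

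CD274 encodes PD-L1, the ligand through which tumour cells engage PD-1 on T cells. Its level was 10.55 in RKO and 8.84 in CAR1. It was weak in MDST8 at 4.44, in CL40 at 3.99 and in HCT116 at 3.90. In the other 13 lines it was below background, between 2.88 in NCIH716 and 3.83 in SNUC1. RKO and CAR1 were therefore at least 103-fold and at least 31.6-fold above the background level, and the largest step in the order of the lines, 4.40 log2 units, lay between MDST8 and CAR1. The other 16 lines spanned 1.56 log2 units. Against the stricter 99th percentile, RKO and CAR1 were the only lines with CD274. The 2 CD274 probe sets had a correlation of 0.90 over the lines, but the dimmer one read 8.80 in RKO and 4.78 in CAR1, so the CAR1 signal differed by 3.52 more log2 units between the probe sets than the average line did.

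Next to CD274 on chromosome 9 lie PDCD1LG2, which encodes PD-L2, the second ligand of PD-1, and PLGRKT, a plasminogen receptor. PDCD1LG2 was highest in the same lines, at 4.34 in RKO and 4.05 in CAR1, followed by MDST8 at 3.91, all weak values. PLGRKT was above background in all 18 lines, and RKO at 9.11 and CAR1 at 9.08 ranked 16 and 15 of 18 from the lowest. Relaxin 2, RLN2, on the other side, reached 7.39 in CAR1 and was below background in RKO. CMTM6, which keeps PD-L1 protein at the cell surface, lay between 9.79 in NCIH716 and 11.66 in LS513, so every line carried it. The genes most like CD274 over the 18 lines, among 8778 genes with an SD of 0.5 or more, were SEMA7A (Pearson r 0.87), MIR155HG (0.85) and SEMA3D (0.85). Without RKO and CAR1 these values were 0.45, -0.0039 and -0.27, so the likeness rests on those 2 lines.

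CD276, or B7-H3, is a B7 family protein whose receptor on T cells is not settled. It exceeded the background level in all lines, with a mean of 6.60 ± 0.90 (SD, n = 18). MDST8 had the highest level at 8.01, followed by NCIH716 at 7.64 and HT55 at 7.43. KM12 was lowest at 3.93, barely above background, and SNUC1 followed at 5.61. KM12 was the lowest line in both CD276 probe sets that exceeded background in any line. It lay 2.84 log2 units (7.15-fold) under the median of the other 17 lines, which spanned 2.40 log2 units among themselves. The genes most like CD276 were MSANTD4 (r 0.79), MAGED1 (0.75) and PARP6 (0.75); MSANTD4 and MAGED1 were also lowest in KM12, and without KM12 and MDST8 the values were 0.29, 0.44 and 0.61.

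HHLA2, a B7 family member that binds TMIGD2 and KIR3DL3, was at 4.49 in CL40 and at or below 3.72 in the other 17 lines, all below background. The other 2 HHLA2 probe sets were above background in no line. The level in CL40 lay under the 99th percentile and is weak.

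CD47 binds SIRPA on macrophages and tells them not to engulf the cell. HUTU80 read 4.28, a weak value. The other 17 lines had levels between 9.28 in LS513 and 11.75 in CL40, with RCM1 at 11.64 and LS180 at 11.58, and averaged 10.46 ± 0.77 (SD, n = 17). HUTU80 thus lay 5.00 log2 units (32.0-fold) under the next lowest line and 6.08 under the median of the others. With HUTU80 taken at the 99th percentile of background instead, LS513 was still at least 24.0-fold higher. HUTU80 was the lowest line in the 5 brightest of the 7 CD47 probe sets, with 3.85, 3.01, 3.20 and 3.35 in the next 4. The 2 brightest CD47 probe sets had a correlation of 1.00 over the lines. The SD of their difference, divided by the square root of 2, was 0.10 log2 units.

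Genes beside CD47 on chromosome 3 were read after this value was seen. IFT57, an intraflagellar transport gene and the nearest measured gene on one side, was at 2.93 in HUTU80, below background, against 5.48 to 8.85 in the other 17 lines. BBX, the nearest measured gene on the other side, was at 5.53 in HUTU80, against a median of 8.50 in the others, and only SNUC1 was lower, at 5.15. CBLB, a ubiquitin ligase, was at 4.07 in HUTU80 and at least 5.07 elsewhere. ALCAM, an adhesion molecule, was at 5.46 in HUTU80 against a median of 9.62, and only OUMS23 was lower, at 3.09. NFKBIZ, a regulator of NF-kappaB targets, was at 4.52 in HUTU80 against a median of 7.40. On the far side of IFT57, CIP2A was at 8.72 in HUTU80, its highest line, and DZIP3 at 8.29, its second highest. Within 10 measured protein-coding genes on each side, 11 neighbours exceeded background in 16 or more of the other lines, and 5 of these lay 2 log2 units or more under the median of the others in HUTU80; 4.7% of the 9211 genes of that kind did so. HUTU80 had the highest mean level of 6 fibroblast markers, 7.14, against 3.32 to 6.08 in the other lines, and the part of this difference in the CD47 value was not tested. The mean level of 10 intestinal epithelium markers was 4.55 in HUTU80, and it was similarly low in MDST8 (4.38), COLO320HSR (4.88) and RKO (5.02), lines in which CD47 was at 10.36, 9.91 and 9.94. Whether the low epithelial marker level bears on the CD47 value in HUTU80 was not tested.

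**Figure D2:**
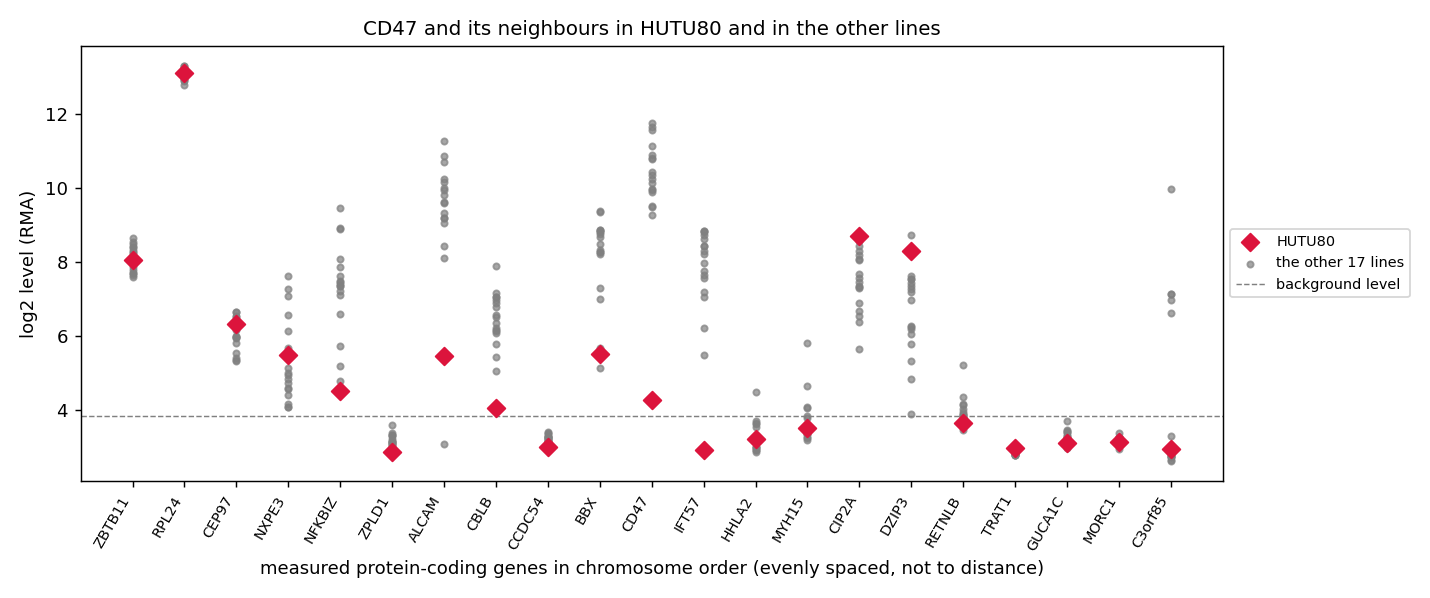
Log2 level (RMA) of CD47 and the 10 measured protein-coding genes on each side of it, in chromosome order and evenly spaced, in HUTU80 (red diamonds) and in the other 17 lines (grey points); the dashed line is the background level. HUTU80 lies at 4.28 for CD47 and 2.93 for IFT57, under every other line, and at 8.72 for CIP2A, above every other line.

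The genes most like CD47 over all lines were MYD88 (r 0.89), SPATS2L (0.89) and MET (0.88). All 3 were lowest in HUTU80, and without HUTU80 and CL40 the values were 0.45, 0.43 and 0.13. CD47 was compared with the mean deviation of 7 gene lists, and 3 had an r of 0.5 or more. For 25 interferon response genes r was 0.55 (rho 0.64), and it was 0.71 without HUTU80, 0.50 within the 10 lines in DMEM/F-12 and 0.89 within the 8 lines in RPMI 1640. CL40 and RCM1, the lines with the highest CD47, also had the highest interferon response mean. For the interferon gamma axis r was 0.51, with 0.58 within DMEM/F-12 and 0.28 within RPMI 1640. For epithelial genes it was 0.52, with 0.76 within DMEM/F-12 and 0.25 within RPMI 1640, and 0.42 without HUTU80. Among all genes, 3.25%, 3.1% and 8.45% had an r of 0.5 or more with these 3 lists. The 18 points share a laboratory and an array platform, and these correlations are descriptions.

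PVR (CD155) and NECTIN2 (CD112) are adhesion proteins that engage CD226 and TIGIT. PVR had the narrowest range of the members detected in all lines, between 5.28 in LS513 and 7.09 in HCT116, with a mean of 6.01 ± 0.54 (SD, n = 18). RKO at 6.95 and KM12 at 6.59 followed HCT116. Of the 7 PVR probe sets, HCT116 was highest in the brightest only. The others were highest in RCM1, RKO, HUTU80, HT55 or KM12. The lowest line was LS513, OUMS23, SW48 or CAR1, depending on the probe set. Of 17 steps between neighbouring lines in the PVR order only 1 exceeded 0.26. This value is the SD of the difference between its 2 brightest probe sets, divided by the square root of 2. The order within most of the panel therefore cannot be told from the spread between probe sets. The genes most like PVR were KRR1 (r 0.79), PPP1R9A (0.78) and TMEM64 (0.75), with 0.64, 0.81 and 0.68 without HCT116 and RKO.

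NECTIN2 averaged 7.12 ± 0.88 (SD, n = 18). HUTU80 was highest at 8.58 and CL40 followed at 8.20. COLO320HSR was lowest at 4.54, a weak value, and RCM1 followed at 6.06. COLO320HSR lay 2.65 log2 units (6.28-fold) under the median of the others and was the lowest line in 3 of the 4 NECTIN2 probe sets. HUTU80 was highest in the brightest probe set only, and OUMS23 was highest in the other 3. Of the genes on either side of NECTIN2 on chromosome 19, BCAM was above background in only 4 lines, and TOMM40 was at 9.12 in COLO320HSR, against a median of 8.88 over all lines. OSBPL10 (r 0.79), NFKB2 (0.77) and ACADVL (0.72) were most like NECTIN2 and were all lowest in COLO320HSR; without COLO320HSR and HUTU80 the values were 0.24, 0.48 and 0.33.

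MICB is a stress-induced ligand of NKG2D. HCT116 had the highest level at 8.58, followed by RKO at 8.23 and SW48 at 7.92. In the brightest probe set COLO320HSR was lowest at 3.57, below background, and NCIH716 followed at 5.00; in the second, COLO320HSR was at 3.997, a weak value, and HT55 was lowest at 3.21. The median of the other 17 lines was at least 7.71-fold above COLO320HSR, taken at the background level. MICB has a near-identical relative in MICA, whose transcripts its probes may also bind, so the values are uncertain as to the gene. The second MICB probe set had a correlation of 0.68 with the first, and read 8.12 in OUMS23 where the first read 5.46. HLA-C and HLA-B, neighbours of MICB in the major histocompatibility complex that present peptides to T cells and have near-identical relatives of their own, were low in COLO320HSR, at 5.55 and 5.70, and in OUMS23, at 6.66 and 5.70. MICB was most like TNFRSF12A (r 0.83), TSPAN17 (0.80) and MALT1 (0.80), each also lowest in COLO320HSR, and without COLO320HSR and HCT116 the values were 0.74, 0.75 and 0.65.

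ULBP2 is another NKG2D ligand, anchored to the membrane by a lipid. Its level was highest in RKO at 8.81, CAR1 at 8.48 and KM12 at 8.31. It was lowest in OUMS23 at 4.07 and HUTU80 at 4.65, both weak values. RKO was also the highest line in the second probe set, where CAR1, at 5.71, lay under KM12 at 6.74 and CL40 at 6.20 and HUTU80 was lowest at 3.91. The 2 ULBP2 probe sets had a correlation of 0.89. The SD of their difference, divided by the square root of 2, was 0.46, more than the step between CAR1 and KM12. The near-identical relatives RAET1L and RAET1G were not analysed here, and their transcripts may contribute. Of the other ULBP genes beside it on chromosome 6, ULBP3 was highest in RKO at 5.93 and above background in 7 lines, and ULBP1 was below background in all 18. The genes most like ULBP2 were FOSL1 (r 0.80), HERC6 (0.79) and MAP2K3 (0.77), and without OUMS23 and RKO the values were 0.71, 0.75 and 0.62. Of the 7 lists, 2 had an r of 0.5 or more with ULBP2: class I antigen presentation with 0.55 (0.78 within DMEM/F-12 and 0.23 within RPMI 1640) and NF-kappaB genes with 0.51 (0.63 within DMEM/F-12 and 0.32 within RPMI 1640). For these lists 5.47% and 5.61% of all genes reached that value.

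Among the 7 members detected in 3 or more lines there were 21 pairs, and 2 had an r of 0.5 or more, both with ULBP2. PVR and ULBP2 had an r of 0.61 (rho 0.60), with 0.49 without HCT116 and RKO, 0.50 within DMEM/F-12 and 0.81 within RPMI 1640. HUTU80 lay off this relation with high PVR and low ULBP2, and r was 0.78 without it. CD274 and ULBP2 had an r of 0.55, which was 0.32 without RKO and CAR1, 0.71 within DMEM/F-12 and 0.024 within RPMI 1640. CD274 and MICB had the highest rho of the 21 pairs, 0.68, with an r of 0.46, which was 0.55 without RKO and CAR1, 0.56 within DMEM/F-12 and 0.69 within RPMI 1640; most CD274 values were below background. The share of all genes with an r of 0.5 or more was 3.72% for PVR, 3.09% for ULBP2 and 3.58% for CD274. No pair had an r of -0.5 or less.

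**Figure D3:**
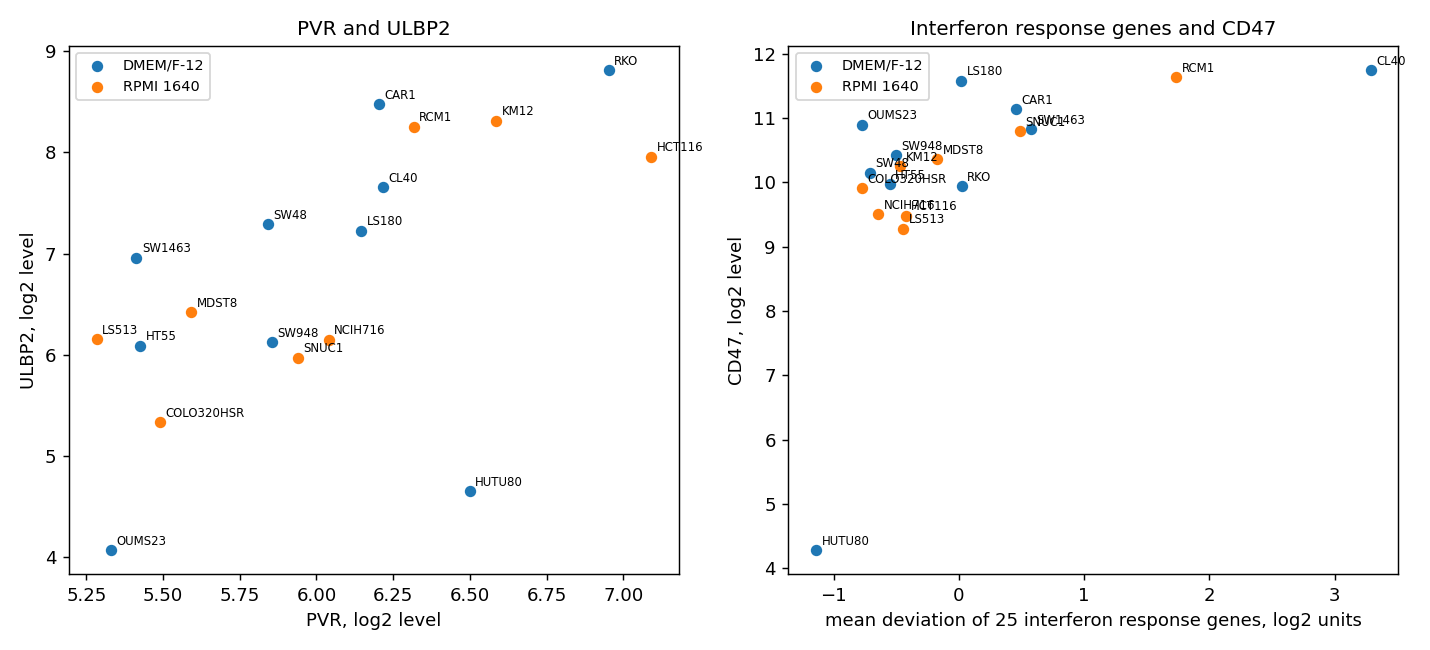
Left, ULBP2 against PVR (log2 levels, RMA); right, CD47 (log2 level) against the mean deviation of 25 interferon response genes from their panel means (log2 units); each point is 1 line, blue for DMEM/F-12 and orange for RPMI 1640. HUTU80 lies under the other points in both panels except for OUMS23 at left, and r is 0.61 at left and 0.55 at right over 18 lines.

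IDO1 was between 3.03 in NCIH716 and 3.77 in COLO320HSR, under the background level in all 18 lines, by its 1 probe set. RNA of other enzymes of the kynurenine route was above background in some lines. Enzyme activity and kynurenine were not measured. TDO2, which catalyses the same step, was at 12.19 in SW48 and 11.83 in SNUC1 and above background in 7 lines. IDO2, the gene next to IDO1, was at 6.74 in COLO320HSR and below background in the other 17 lines. Of 14 genes of tryptophan and kynurenine metabolism, all were above background in at least 1 line, as were 15361 of all 19774 genes. A range of 3 log2 units or more was found for 7 of the 14 and for 31.9% of the genes above background. KYNU, which cleaves kynurenine, was above background in 3 lines, at 9.09 in CAR1, at 8.13 in MDST8 and at 7.997 in NCIH716, and KMO, which hydroxylates it, was at 8.23 in CAR1 alone. AHR, the receptor that kynurenine activates, was below background in OUMS23 at 2.62, HUTU80 at 3.44 and RKO at 3.51. SLC7A5, an amino acid transporter, was lowest in MDST8 at 5.82, and BIN1, a repressor of IDO1 in mouse cells, was lowest in NCIH716 at 4.41 and HUTU80 at 4.58.

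The culture media were compared over lines, which differ in far more than medium. CD274 was at 3.03, 3.41 and 10.55 (lowest, median and highest) in DMEM/F-12 and at 2.88, 3.33 and 4.44 in RPMI 1640. NECTIN2 was at 6.70, 7.41 and 8.58 in DMEM/F-12 and at 4.54, 6.96 and 7.68 in RPMI 1640. MICB was at 5.46, 7.15 and 8.23 in DMEM/F-12 and at 3.57, 6.47 and 8.58 in RPMI 1640. The ranges of the media overlapped for all 8 detected members. By limma with a mean-variance trend and Benjamini-Hochberg adjustment over 15361 genes, none of the 8 members passed an adjusted p of 0.05, and no gene did (0% of those tested); 1 member, NECTIN2, and 404 genes had an unadjusted p under 0.05. NECTIN2 averaged 7.48 ± 0.61 in DMEM/F-12 and 6.68 ± 0.99 in RPMI 1640 (SD, n = 10 and 8), a difference of 0.80 with a standard error of 0.37 and an adjusted p of 0.999 (limma). MICB averaged 6.94 in DMEM/F-12 and 6.20 in RPMI 1640, a difference of 0.74 with a 95% interval of -0.46 to 1.94. For CD274 the difference was 1.14 (95% interval -0.78 to 3.05), and for CD47 it was -0.057 (-1.63 to 1.52). PVR, ULBP2 and CD276 differed by -0.054, -0.083 and 0.12, and HHLA2 by 0.31.

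**Figure D4:**
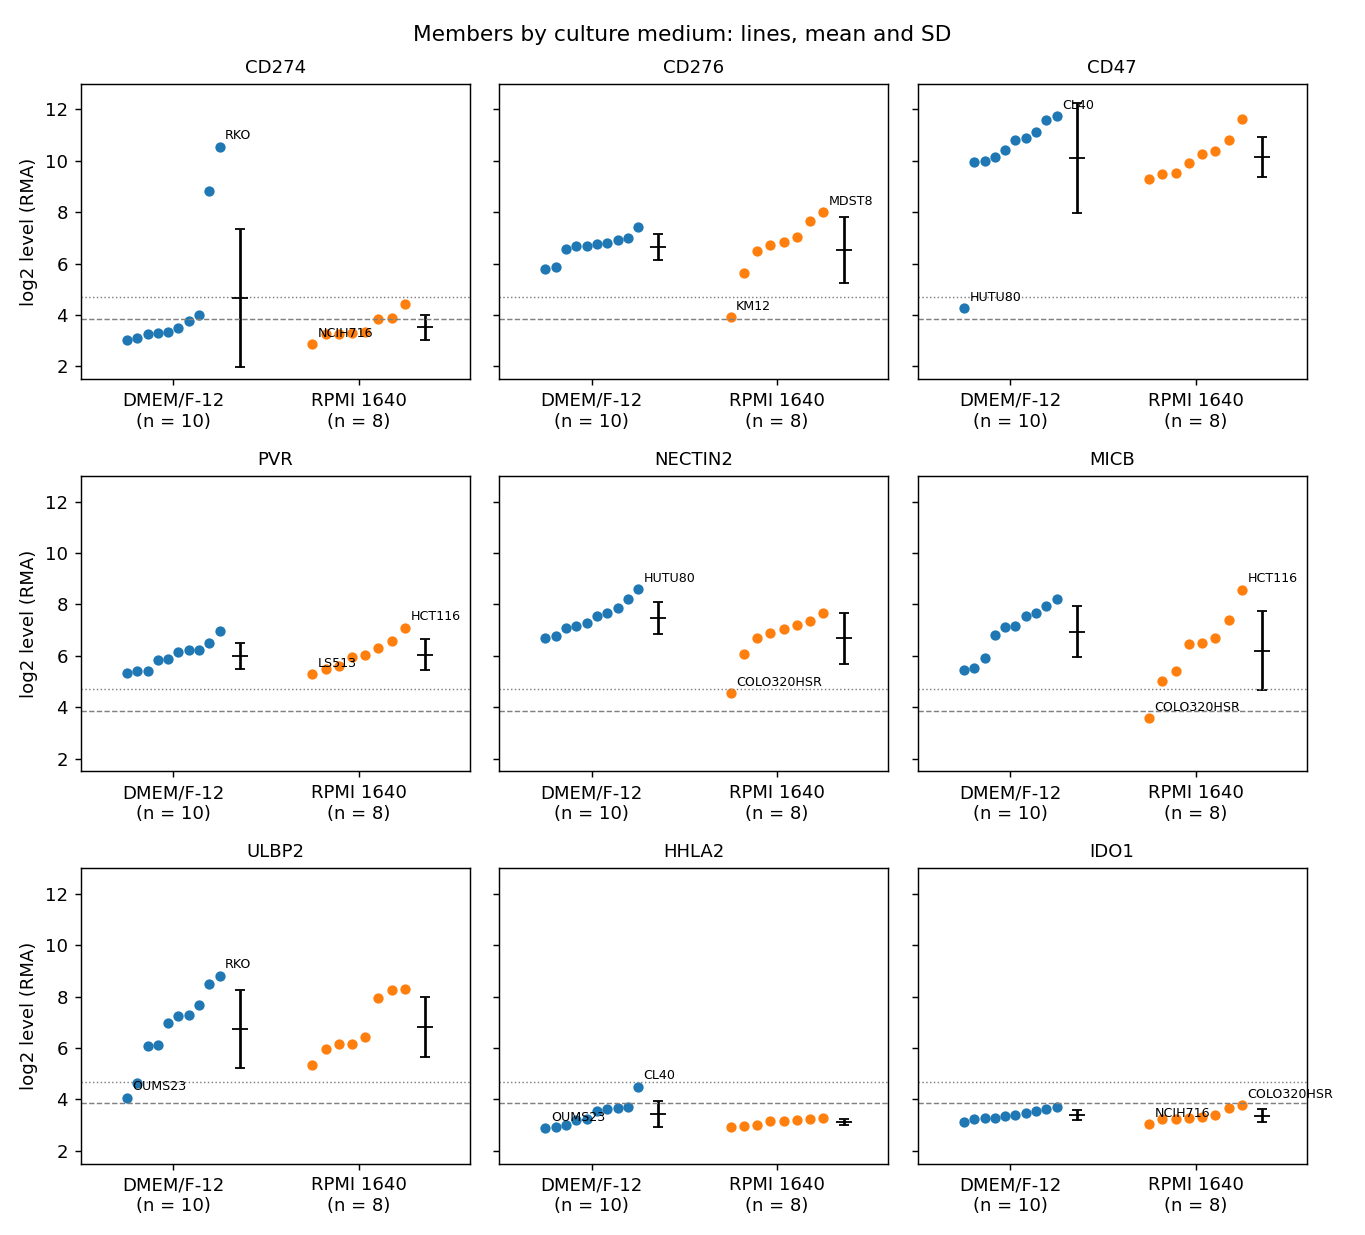
Log2 level (RMA) of each of the 9 measured members in DMEM/F-12 (blue, 10 lines) and RPMI 1640 (orange, 8 lines); points are lines in rising order, the black bar is the mean with its SD, and the dashed and dotted lines are the 95th and 99th percentile of background (3.86 and 4.69). The media overlap in every panel, and the highest and lowest line of each gene is named.

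Most of the measured immune receptors, of these and of other checkpoint and NK cell ligands, were below background in all lines. Of 17 receptor genes listed, PDCD1, which encodes PD-1, and KLRC1 were not measured. Of the 15 measured, 4 exceeded the background level in any line, among them SIRPA and KLRK1. SIRPA, the CD47 receptor, was highest in MDST8 at 6.31. It was at 5.49 in HCT116, 5.09 in SW1463 and in HUTU80, and 4.95 in RKO. KLRK1, which encodes NKG2D, was at 5.22 in NCIH716 and at or below 3.93 in the other lines. CD226 and TIGIT, the receptors of PVR and NECTIN2, and TMIGD2 and KIR3DL3, those of HHLA2, were below it in all lines.

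Of 20 other checkpoint ligands, all measured, 18 exceeded background in at least 1 line and 15 had a range of 3 log2 units or more. Of all 19774 genes, 15361 exceeded background in at least 1 line, and 31.9% of these had such a range. VTCN1 (B7-H4), a B7 family relative of CD274 and CD276, was at 10.42 in CAR1 and 9.56 in OUMS23 and at or below 3.88 elsewhere. SIGLEC15 reached 11.29 in MDST8, FGL1, a ligand of LAG3, 8.27 in NCIH716, and CD200 8.66 in LS180 and 8.40 in COLO320HSR. CD24, like CD47 a signal against engulfment, was above background in 16 lines and listed at 3.41 in RKO and 3.60 in MDST8; in HUTU80, the line with the lowest CD47, it was at 4.95 against a panel median of 10.92. CD70 was at 7.96, 7.72 and 7.48 in LS180, NCIH716 and MDST8 and TNFSF9, a costimulatory ligand, was highest in LS180 at 9.42. LGALS3 was at 3.32 in COLO320HSR, and CEACAM1 was highest in SNUC1 at 9.94. HLA-E was lowest in COLO320HSR at 7.92; HLA-G shares near-identical sequence with other class I genes and is uncertain. VSIR was highest in CAR1 at 6.56, TNFRSF14 in SW1463 at 6.12 and BTNL9 in HUTU80 at 8.27. CD80 and CD86 were below background in all lines.

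Of 16 other NK cell ligands measured (of 18 listed), 12 exceeded background in at least 1 line, as did 15361 of all 19774 genes. A range of 3 log2 units or more was reached by 8 of them and by 31.9% of the genes above background. ICAM1, which NK cells and T cells bind through LFA-1, was highest in CAR1 at 9.37, MDST8 at 8.78, CL40 at 8.41 and RKO at 8.39. NCR3LG1 (B7-H6), the ligand of the NK receptor NKp30, was above background in 16 lines and highest in NCIH716 at 8.69. CLEC2B, a ligand of NKp80, was at 9.08 in MDST8 and 7.46 in RKO alone. CADM1 was at 12.13 in OUMS23, a line with low ULBP2. ICAM2 was highest in LS180 at 7.27. NECTIN4, which also binds TIGIT, was highest in CAR1 at 7.22, and NECTIN3 in SW948 at 8.20.

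**Figure D5:**
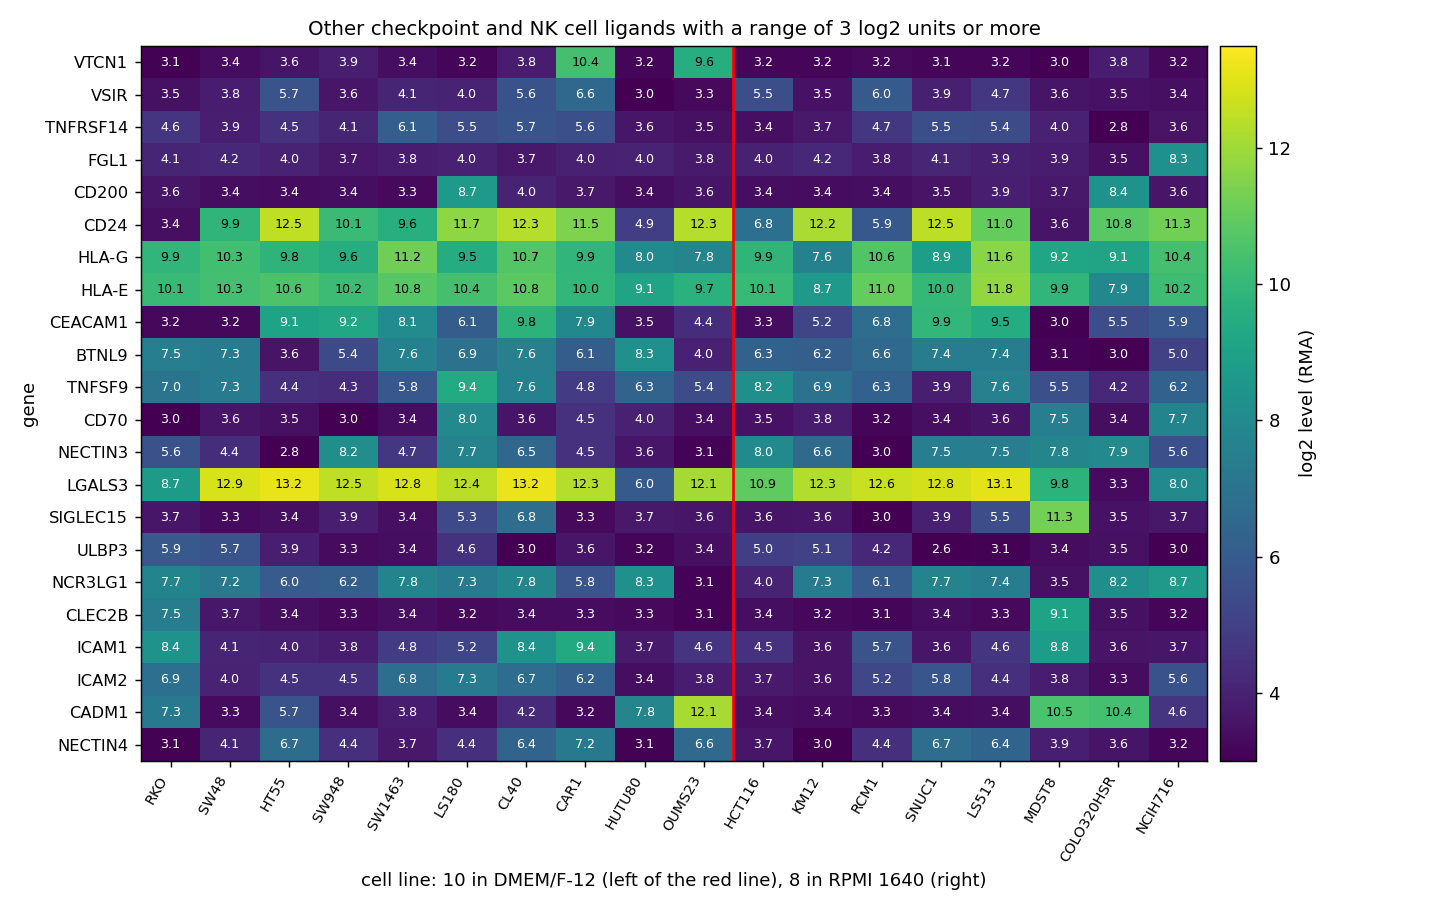
Log2 level (RMA) of the other checkpoint and NK cell ligands that exceeded background in at least 1 line and had a range of 3 log2 units or more, 1 row per gene and 1 column per line, with DMEM/F-12 left of the red line and RPMI 1640 right of it. VTCN1 is at 10.42 in CAR1 and 9.56 in OUMS23, and SIGLEC15 at 11.29 in MDST8.

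Of 7 genes of death ligands and their receptors, 4 had a range of 3 log2 units or more, which 31.9% of the genes above background had. TNFRSF10A and TNFRSF10D, receptors of TRAIL, a death signal that NK cells carry, were highest in RKO at 8.90 and 9.12 and below background in MDST8 at 3.46 and 3.16. FAS was lowest in OUMS23 at 4.01, and TNFSF10, which encodes TRAIL, was highest in SW1463 at 8.31. Of 12 genes listed for ligand processing, turnover or expression, 11 exceeded background in all lines, as did 42.4% of all measured genes. Only 1 of the 12, the protease MMP14, had a range of 3 log2 units or more, with 7.60 in MDST8. Of 19 measured genes of the interferon gamma axis, which induces CD274 in many cells, 17 exceeded background in at least 1 line. Among all 19774 genes, 15361 did so. A range of 3 log2 units or more was found for 10 of the 17 and for 31.9% of the genes above background. CL40 was the highest line for GBP1 at 6.70, GBP2 at 6.45, CXCL10 at 6.98 and CXCL11 at 8.73, while CD274 was weak there. In RKO, the line with the highest CD274, CXCL11 was below background at 2.84, but in CAR1, the next line for CD274, CXCL10 was at 6.28 and CXCL11 at 5.97, the second highest level of each, and GBP1 was at 4.63. IRF9 and PSMB9 were highest in RCM1 at 9.53 and 9.76, NLRC5 and TAP1 in LS513 at 8.19 and 9.26, SOCS1 in OUMS23 at 6.35 and SOCS3 in HCT116 at 6.85. The r of CD274 with the mean deviation of these genes over 18 lines was 0.10 (rho 0.35). With interferon response genes r was 0.14 (rho 0.60) and with NF-kappaB genes 0.28 (rho 0.63). These correlations too are descriptions, and 13 of the 18 CD274 values were below background.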

How the data were processed

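Per the submitters' processing notes, the authors made the deposited log2 values with RMA in the affy package; no version is given in the sources used here. RMA corrects background, normalizes arrays by quantiles and summarises probes, which compresses differences at low levels. The deposited values ran from 2.31 to 13.71 and were used as they stand.

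Of 54613 probe sets, 40914 were annotated to 1 gene, 864 to several and 12835 to none, and those with 1 gene were used. Symbols were updated through Entrez ID to a RefSeq table of GRCh38.p14, which held 40858 of them and also gave gene order. A gene took the values of its brightest probe set. Background came from 48 genes measured, out of 54 listed, that are restricted to other tissues: the 95th percentile over all values of their 67 probe sets. The members, gene lists and this background set were chosen with earlier results of these data known.

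Named were all members, listed genes with a range of 3 log2 units or more, the 3 genes most like each member, chromosomal neighbours and markers. The region around CD47 was chosen after its values were seen. Media were compared with limma 3.58.1 (trend) in R 4.3.3, over lines and with Benjamini-Hochberg adjustment; other steps used Python 3.11.15. Alternatives were other probe set choices, array scalings, background levels, ranges, limma settings, Spearman correlation, single media and each line left out. Scripts were tested on simulated data. MICA was not analysed here.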

Additional observations from a re-analysis of the deposited data

Results flagged for a closer look

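Within each medium, the highest and the lowest line of every measured member was set against its nearest neighbour and the whole range (Dixon's criterion). Of 18 groups tested, 2 held a line far from the others, and chance flags about 1 group in 20. CD47 in HUTU80 (4.28) lay far under the other 9 lines in DMEM/F-12, which were at 9.94 or higher. HHLA2 in CL40 (4.49) lay above the other 9 lines in DMEM/F-12, which were at 3.72 or lower and below background. Its ratio of gap to range, 0.480, was just over the critical 0.466. The criterion uses the gap to the nearest line, so it can miss 2 lines that stand apart together. For CD274 in DMEM/F-12, with RKO at 10.55 and CAR1 at 8.84, the ratio was 0.227.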

How the results depend on the processing

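The number of members with a range of 3 log2 units or more was 6, and 5 to 6 under all alternatives, leaving out each line included. The number of members called between the media was 0 under all alternatives. The number of pairs of members with an absolute r of 0.5 or more was 2; it was 1 without the 2 lines farthest from the median, 6 within DMEM/F-12 and 1 to 4 with each line left out. The number of member and list combinations past 0.5 was 5 of 49; it was 13 within DMEM/F-12 and 3 to 7 with each line left out, the 3 being without HUTU80. Differences between the media near 0 changed sign. CD276 (0.12) was -0.088 with the mean of all probe sets and -0.26 to 0.33 with each line left out. CD47 (-0.057) was 0.088 with that mean, 0.012 with the probe set of largest SD and -0.24 to 0.59 with each line left out, the 0.59 being without HUTU80. PVR (-0.054) was 0.025 with that mean, 0.19 with the probe set of largest SD and -0.16 to 0.096 with each line left out, and ULBP2 (-0.083) was -0.31 to 0.21. The cause of these changes was not tested. CD274 was above background in 5 lines, in 3 with the mean of all probe sets and in 2 against the 99th percentile; HHLA2 was in 1 line and in 0 under both, and IDO1 was in 3 lines against the 90th percentile (3.67). No paired analysis was possible because the labels give no replicate numbers that pair lines across media. Values under 4.69 are limited by their small signal over background, and 1 array per line leaves single lines without replicate error.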
